A study of Mus musculus with 6 samples.

Results

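The 10 genes described here encode zinc-dependent histone deacetylases (HDACs): Hdac1, Hdac2, Hdac3 and Hdac8 of class I, Hdac4, Hdac5, Hdac7 and Hdac9 of class IIa, Hdac6 of class IIb and Hdac11 of class IV. They were chosen by name, by matching the deposited RefSeq transcript rows to mouse gene symbols and summing the rows of each symbol, and they are 10 of 24553 genes and unmatched rows. RNA was sequenced from the cortex of male C57BL/6J mice aged 15 weeks, 14 days after stroke, in 3 libraries from mice that drank short-chain fatty acids (SCFA) and 3 libraries from mice that drank a salt-matched control. Both groups drank water with 5% sucrose and the antibiotics ampicillin, metronidazole, neomycin and vancomycin, and the SCFA or salt treatment lasted 4 weeks from an age of 6 to 8 weeks, so the controls were antibiotic-treated animals with stroke as well. The design text gives 3 mice per group, and each library was taken as 1 mouse.

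Histone deacetylases remove acetyl groups from lysines of histones and other proteins, which generally goes with tighter chromatin and lower transcription. Of class I, HDAC1, HDAC2 and HDAC3 are catalytic subunits of nuclear corepressor complexes. Class IIa enzymes shuttle between nucleus and cytoplasm under the control of kinases and 14-3-3 proteins and bind MEF2 transcription factors. Class IIb HDAC6 acts mainly on cytoplasmic proteins such as tubulin, and HDAC11 is the single class IV enzyme. Butyrate, one of the short-chain fatty acids made by gut bacteria, is a classical inhibitor of HDAC activity. The counts report transcript abundance of the genes, not enzyme activity or histone acetylation.

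Total counts ran from 9275252 to 13862756 in the SCFA libraries and from 10393480 to 11397967 in the control libraries. An unmatched row held 55.3% of the counts of control 2, against 35.0% to 46.3% in the other 5 libraries. Beside that row, control 2 had 5092272 counts, the fewest, with 13600 rows detected against 15988 to 16941 elsewhere. Control 2 stood apart on the first principal component, at 109.2 against -25.77 to -17.74 in the other 5 libraries, and SCFA 2 stood apart on the second, at -51.59 against -9.537 to 30.74. Striatal marker genes summed to 396 CPM (counts scaled to a common library size, with TMM factors) in SCFA 2 and to 70.9 to 133 CPM in the other libraries. Exocrine pancreas genes, which cortex should lack, summed to 0.275 to 1.15 CPM in SCFA libraries and to 32.4 to 337 CPM in controls. Neuronal markers were present in every library, at a sum of 1140 to 1310 CPM with SCFA and 1100 to 1230 CPM in controls, whereas the endothelial genes Pecam1 and Tek were at 0 throughout.

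The counts of the HDAC genes are given beside the number of their transcript rows. The members had 24 rows, of which 10 were at 0 in all 6 libraries, and all 10 belonged to Hdac5, Hdac6 and Hdac7. For each row, the exonic bases that no other row of the same gene holds were counted from the GENCODE M21 structures. The leading Hdac5 row held 519 such bases and 192 counts over all libraries, a second row, whose structure could not be told from that of other rows, had 33 counts and the other 3 had 0. Hdac6 had 2 rows with 75 and 2 such bases, and they held 4 and 0 counts. Hdac7 had 8 rows, of which 2, with 155 and 57 such bases, held 4 counts each. The other 6 held 0, among them the rows with the most such bases, 273 and 200. Of the 5 genes with a single row, Hdac2, Hdac3, Hdac4 and Hdac11 each held at least 2385 counts over all libraries, and Hdac1 held 386.

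**Figure D1:**
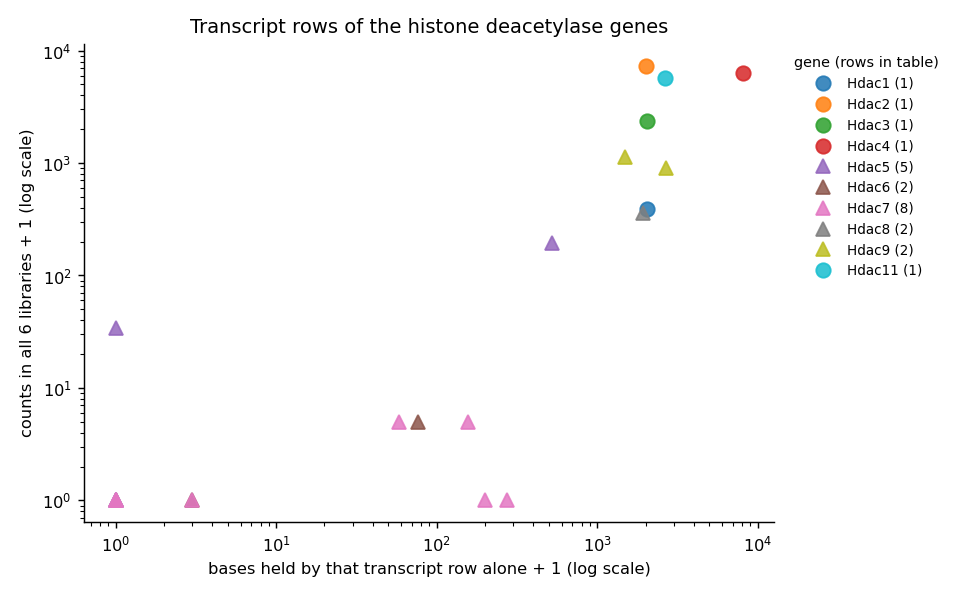
Counts summed over the 6 libraries (vertical, plus 1, log scale) against the exonic bases held by that row alone (horizontal, plus 1, log scale) for 23 of the 24 transcript rows of the HDAC genes; points at the lower left lie on top of each other, triangles mark genes with several rows, and 1 Hdac8 row without a matched structure is not drawn. Rows with at most 273 such bases hold at most 4 counts, apart from the Hdac5 row with 33. Rows with at least 1488 hold at least 386, leaving aside the Hdac8 row with 355. That row is drawn at its full 1936 bases because it could not be compared with the other Hdac8 row.

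Across the table, rows with fewer such bases were more often at 0, although within Hdac7 the rows with the most were at 0. Of rows of multi-row genes with 0 such bases, 88.7% of 5973 were at 0 in every library, and the share was 68.4% of 2717 rows with 1 to 99 bases, 33.1% of 3213 rows with 100 or more but fewer than 500, and 30% of 2235 rows with 500 or more. A low value of Hdac5, Hdac6 or Hdac7 is therefore given as a count of the reads placed on its rows and not read as low expression. Hdac10, the other class IIb gene and not among the 10, had 4 rows at 0 with 11 such bases in all.

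Hdac9 was the member whose rows could be told apart best, and its sequences are shown because both of its rows hold long stretches of their own and both were well counted (1131 and 909 reads). The gene lies on the minus strand of chromosome 12 (34047580 to 34917095, GRCm38). The longer coding sequence has 3201 bases in a transcript of 3204 exonic bases, and the shorter one has 1764 coding bases in a transcript of 4413. HDAC9 is known to occur also as a truncated protein, called MITR or HDRP, which lacks the deacetylase domain and still binds MEF2; whether the shorter row is that form was not checked here. Below are the last 30 coding bases that both hold before they part (lower case, chr12:34373878-34373907) and the 48 coding bases that follow in each alone (capitals), written 5′ to 3′ on the transcribed strand.
Hdac9 longer: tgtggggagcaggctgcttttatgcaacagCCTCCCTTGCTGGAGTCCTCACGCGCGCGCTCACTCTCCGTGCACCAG
Hdac9 shorter: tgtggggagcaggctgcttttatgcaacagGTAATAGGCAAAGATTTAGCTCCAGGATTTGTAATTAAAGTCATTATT
In the longer form the capitals lie in another exon, at chr12:34312664-34312711, and in the shorter form they run on directly, at chr12:34373830-34373877. In the matched structures, the longer row holds 1488 exonic bases that the shorter one lacks, and the shorter row holds 2697 that the longer one lacks. The structure of the longer row has almost no bases outside its coding sequence and may be incomplete. Which bases the counted reads came from is not stated in the labels.

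With SCFA, no HDAC gene passed the test. Of the 10 genes, 8 had enough counts to be tested, and 0 were called higher and 0 lower (edgeR quasi-likelihood test, adjusted p between 0.864 and 0.979). Over all 11969 genes tested, 0.00835% were called higher and 0.0752% lower, and 8 of the 9 genes called lower were the exocrine pancreas genes. At an unadjusted p under 0.05, 0 members were higher, against 2.97% of all genes, and 2 were lower, Hdac9 and Hdac2, against 2.79% of all genes. DESeq2 and limma-voom also called 0 members and put the same 2 under an unadjusted 0.05. All 3 SCFA libraries lay above all 3 controls in 3 members (Hdac1, Hdac8 and Hdac11), against 6.42% of all genes, and below them in 2 (Hdac2 and Hdac9), against 5.74% of all genes. The median log2 fold change was -0.10 over the 8 tested members and 0.01 over all genes. In bulk tissue, fewer cells of a type and less RNA per cell cannot be told apart.

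**Figure D2:**
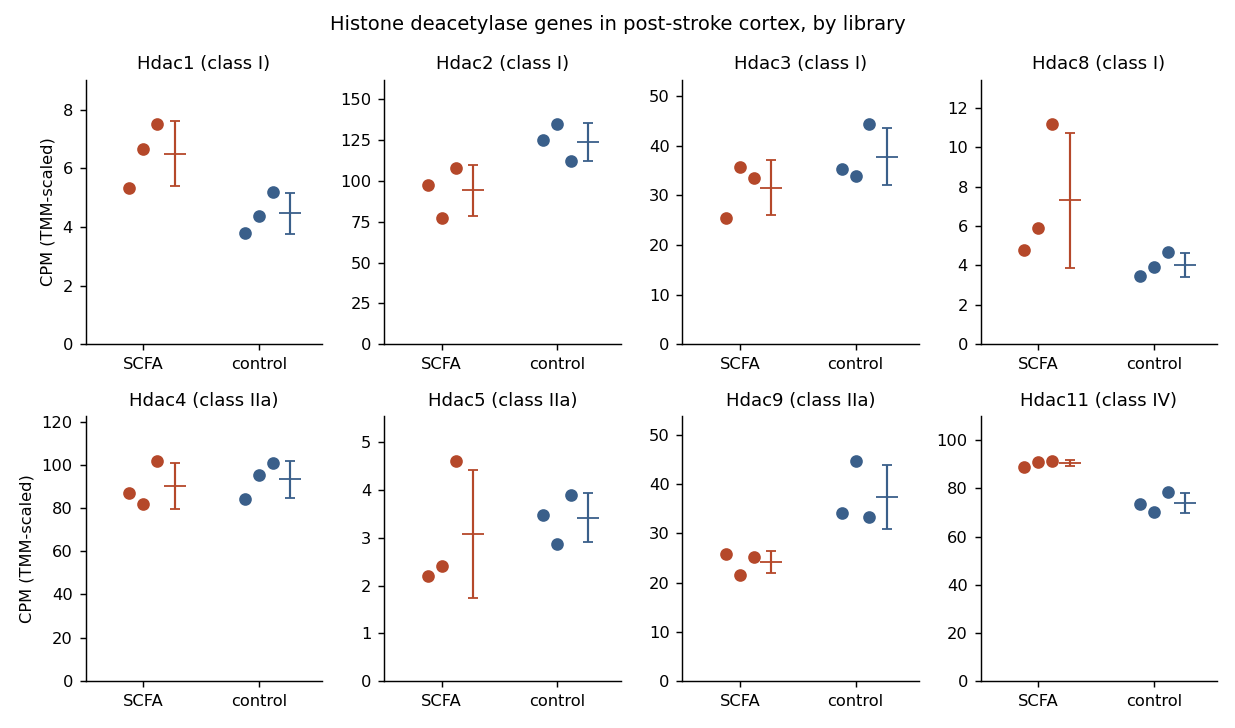
CPM with TMM-scaled library sizes (vertical axis, from 0) of the 8 tested HDAC genes in SCFA libraries (left in each panel) and control libraries (right), with points for replicates 1 to 3 from left to right and bars for mean ± SD. SCFA points lie above every control for Hdac1, Hdac8 and Hdac11 and below every control for Hdac2 and Hdac9.

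In class I, the closely related HDAC1 and HDAC2 are the catalytic subunits of the NuRD, Sin3 and CoREST complexes. Hdac2 (chromosome 10, 36974297 to 37001889, GRCm38.p6) had 97.3, 77.4 and 108 CPM in SCFA libraries 1 to 3, against 125, 135 and 112 CPM in controls 1 to 3. Every SCFA library was below every control, by the narrow margin of SCFA 3 against control 3. The mean was 94.1 ± 15.4 CPM with SCFA and 124 ± 11.7 CPM in controls (SD, n = 3 each). The log2 fold change was -0.40 (SE 0.163, 95% interval -0.75 to -0.05), or 0.759 times the control level, and its adjusted p was 0.864. With libraries scaled to total counts instead, the groups overlapped and the log2 fold change was -0.23.

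Hdac1 (chromosome 4, 129516104 to 129542646) was counted far less, at 51, 97 and 101 reads in SCFA libraries and 47, 38 and 52 in controls. It had 5.33, 6.67 and 7.52 CPM with SCFA, against 3.80, 4.38 and 5.21 CPM in controls. The lowest SCFA library lay just above the highest control. The log2 fold change was 0.55 (SE 0.424, 95% interval -0.37 to 1.46, adjusted p 0.908). Of the 1989 windows of 50 bases in the Hdac1 transcript, 1167 (58.7%) also occur in transcripts of 3 processed pseudogenes, led by Gm10093, which has no row in the table, whereas Hdac2, Hdac3 and Hdac8 share 0 such windows with other genes. How reads that match several places were counted is not stated in the labels, so the level of Hdac1 is uncertain, and the part of the copies in it was not tested.

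The log2 fold changes of Hdac1 and Hdac2 had opposite signs, although neither gene passed the test, and the ratio of their counts needs no scaling between libraries. Hdac1 had 5.48, 8.61 and 6.98 counts per 100 Hdac2 counts in SCFA libraries, against 3.04, 3.24 and 4.66 in controls. The exact 95% counting interval ran from 4.05 to 7.26 in the lowest SCFA library and from 3.46 to 6.15 in the highest control, so those overlapped. The mean was 7.02 ± 1.57 with SCFA and 3.65 ± 0.88 in controls (SD, n = 3 each). The ratio was formed after the values had been seen, and with Hdac1 above and Hdac2 below every control it had to separate the groups, so it is a description with no test.

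Hdac3 (chromosome 18, 37936971 to 37955015), the catalytic subunit of the NCoR/SMRT complex, had 25.4, 35.8 and 33.5 CPM in SCFA libraries, against 35.2, 33.8 and 44.4 CPM in controls. The groups overlapped, with SCFA 1 the lowest and control 3 the highest. The log2 fold change was -0.26 (SE 0.211, 95% interval -0.72 to 0.20, adjusted p 0.91). The log2 fold change depended on the libraries and the scaling: it was -0.12 without SCFA 1 or without control 3 and -0.08 with total counts, and -0.35 without SCFA 2 and -0.43 without SCFA 2 and control 2 together, where the groups no longer overlapped.

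Hdac8 (chromosome X, 102284638 to 102505381), a class I enzyme known to deacetylate the cohesin subunit SMC3, had 4.81, 5.91 and 11.2 CPM in SCFA libraries, against 3.48, 3.92 and 4.71 CPM in controls. SCFA 3 stood well above the rest, and SCFA 1 was only just above control 3. Its log2 fold change of 0.86 was the largest of the members in size (SE 0.462, 95% interval -0.14 to 1.85, adjusted p 0.889), and without SCFA 3 it was 0.41. The counts behind it were 46, 86 and 150 with SCFA and 43, 34 and 47 in controls, summed over 2 rows. The row without a matched structure had 0, 18 and 17 counts with SCFA and 4, 0 and 12 in controls. In CPM its groups overlapped, and those of the other row did not.

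In class IIa, Hdac9 is abundant in neurons and known in muscle and brain as a repressor of MEF2 targets. It had 25.7, 21.6 and 25.1 CPM in SCFA libraries, against 34.1, 44.8 and 33.3 CPM in controls. All SCFA libraries lay below all controls, with a gap wider than the spread among SCFA libraries, and control 2 was the highest. The mean was 24.1 ± 2.22 CPM with SCFA and 37.4 ± 6.44 CPM in controls (SD, n = 3 each). The log2 fold change was -0.63 (SE 0.21, 95% interval -1.09 to -0.18), or 0.645 times the control level. It had the smallest unadjusted p of the members, 0.00984, which became an adjusted p of 0.864 over all genes. Without control 2 the log2 fold change was -0.48, and without both control 2 and SCFA 2 it was -0.41.

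Both Hdac9 rows shown above were lower on average with SCFA. The longer row had 11.6, 11.9 and 14.2 CPM in SCFA libraries, against 21.4, 24.3 and 18.1 CPM in controls, with no overlap (log2 fold change -0.76, SE 0.255, 95% interval -1.31 to -0.21, adjusted p 0.884 in the test of unsummed rows). The shorter row had 14.1, 9.69 and 10.9 CPM in SCFA libraries, against 12.7, 20.5 and 15.2 CPM in controls. Its groups overlapped, through SCFA 1 (log2 fold change -0.48, SE 0.297, 95% interval -1.13 to 0.16, adjusted p 0.898). Per kilobase of bases that a row alone holds, the longer row stood at 8.45 ± 0.965 CPM with SCFA and 14.3 ± 2.08 CPM in controls, and the shorter at 4.28 ± 0.847 CPM with SCFA and 5.99 ± 1.48 CPM in controls (SD, n = 3 each). The structure matched to the longer row is nearly all coding, at 3201 of 3204 bases. Bases outside the coding sequence may be missing from its length, so the levels of the 2 rows are not to be compared with each other. The longer row made up 45.1%, 55.1% and 56.7% of Hdac9 counts with SCFA and 62.7%, 54.2% and 54.4% in controls. These shares overlapped (mean 52.3% ± 6.26 with SCFA and 57.1% ± 4.86 in controls; two-sided exact permutation p = 0.6, in a design of 3 against 3 that cannot go below 0.1).

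**Figure D3:**
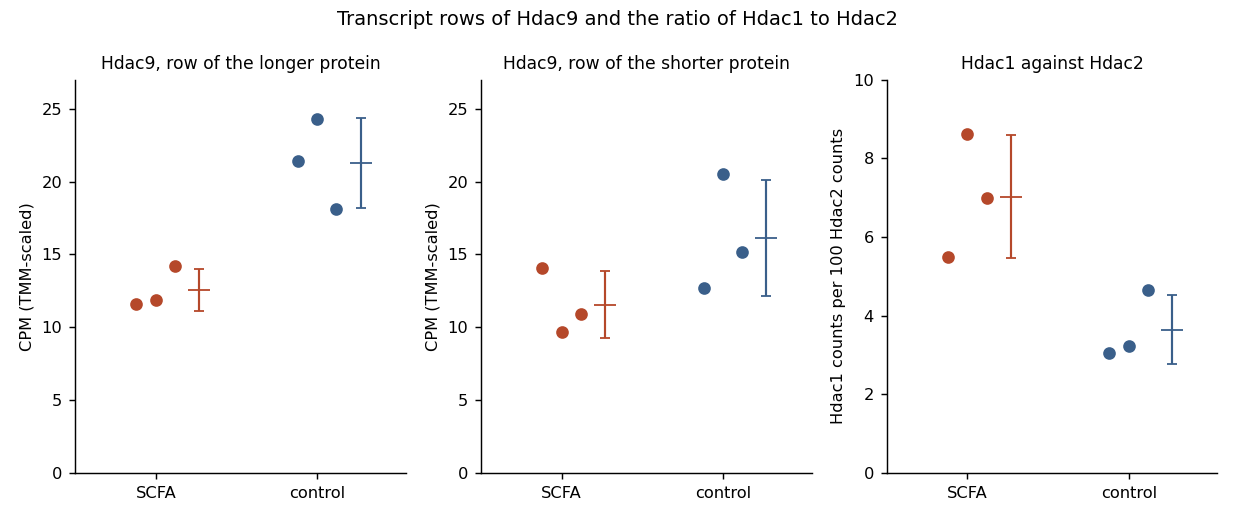
Left and centre, CPM of the 2 Hdac9 rows in SCFA libraries (left in each panel) and control libraries (right); right panel, Hdac1 counts per 100 Hdac2 counts; points are replicates 1 to 3 from left to right, bars are mean ± SD, and axes start at 0. The SCFA points do not overlap the controls for the row of the longer protein or for the ratio, and overlap them for the row of the shorter protein.

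Hdac4 (chromosome 1, 91928779 to 92195702), whose loss is known to impair memory in mice, had 86.8, 81.8 and 102 CPM in SCFA libraries, against 84.0, 95.1 and 101 CPM in controls. The 2 groups covered nearly the same range. The log2 fold change was -0.05 (SE 0.156), and its 95% interval, -0.38 to 0.29, was among the narrowest of the members. Hdac5 (chromosome 11, 102195747 to 102230172), a class IIa enzyme whose nuclear export follows neuronal activity, had 21, 35 and 62 counts in SCFA libraries and 43, 25 and 39 in controls. At 2.19, 2.41 and 4.62 CPM with SCFA and 3.48, 2.88 and 3.90 CPM in controls, the groups overlapped, and the 95% interval of its log2 fold change of -0.15 ran from -1.42 to 1.11. The directions of both turned in some alternatives.

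Hdac7 (chromosome 15, 97792661 to 97844502), known for its role in endothelium and thymocytes, had 0, 2 and 6 counts in SCFA libraries and 0 in every control. Hdac6 (chromosome X, 7930116 to 7948047), the tubulin deacetylase of class IIb, had 0, 0 and 1 counts in SCFA libraries and 2, 1 and 0 in controls. Neither was tested. A count of 0 allows up to 3 counts, or 0.206 to 0.346 CPM in these libraries, on the rows as counted, with counting error alone considered.

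Hdac11 (chromosome 6, 91156670 to 91174692), the class IV enzyme, known also as a remover of long fatty acyl groups from lysines and expressed in neurons and oligodendrocytes, had the smallest standard error of the members. It had 89.0, 91.1 and 91.6 CPM in SCFA libraries, against 73.7, 70.1 and 78.4 CPM in controls. The SCFA libraries lay close together and all above the controls. The mean was 90.6 ± 1.39 CPM with SCFA and 74.1 ± 4.16 CPM in controls (SD, n = 3 each), 22.3% higher, with a log2 fold change of 0.29 (SE 0.146, 95% interval -0.03 to 0.61, adjusted p 0.881). Of its 2653 exonic bases, 690 overlap exons on the opposite strand, most of them (594) in Gm44002, and without a known strand setting the reads of the 2 genes cannot be told apart there.

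**Figure D4:**
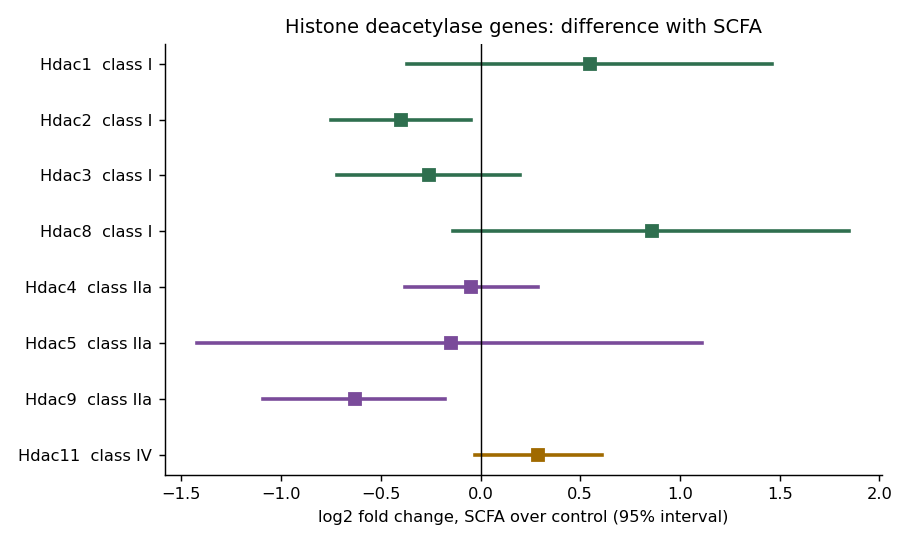
Log2 fold change of SCFA over control (horizontal axis) with its 95% interval from edgeR for the 8 tested HDAC genes, coloured by class; values right of 0 are higher with SCFA. The intervals of Hdac2 and Hdac9 lie below 0 and the other 6 include 0, and no gene passed the threshold after adjustment over all genes.

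The order of levels was read per kilobase of each gene's longest transcript, as the median over the 6 libraries. Hdac2 was highest at 54.7 CPM per kilobase, with 38.6 to 67.4 over the libraries. Hdac11 followed at 31.5 (26.4 to 34.5), Hdac3 at 17.0 (12.5 to 21.9) and Hdac4 at 11.2 (10.1 to 12.6). These were the most abundant HDAC transcripts as counted, and of these neighbours only Hdac3 and Hdac4 had ranges that overlapped. Hdac9 stood at 6.69 (4.89 to 10.2), overlapping Hdac4. The length used for Hdac9, 4413 bases, is that of the row of the shorter protein. It may be too short for the gene, because the structure of the other row is nearly all coding and may be incomplete. Hdac1 at 2.58 (1.87 to 3.69) and Hdac8 at 2.46 (1.8 to 5.77) overlapped each other and lay below Hdac9, except that the highest Hdac8 library exceeded the lowest of Hdac9. The Hdac8 level sums the counts of 2 rows over the length of 1 of them, since the other had no matched structure. Hdac5 stood at 0.745 CPM per kilobase of its longest transcript and at 6.13 per kilobase of bases held by single rows, so its place in the order depends on the length used. Hdac6 and Hdac7 had no level that these counts could resolve.

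Summed per kilobase by class, class I stood at 66.1, 62.5 and 79.7 CPM with SCFA, against 83.4, 88.2 and 82.6 CPM in controls. Hdac2 made up most of this sum, and the groups did not overlap, although they did when scaled to total counts. Class IIa stood at 17.1, 15.6 and 19.5 CPM with SCFA and 18.9, 22.6 and 20.9 CPM in controls, and the groups overlapped. Of the summed level of all members, Hdac11 took 25.8% to 30.5% with SCFA and 19.2% to 22.2% in controls. With Hdac11 above every control and Hdac2, the largest part of that sum, below every control, the separation of this share follows largely from those values. The sums and the share are descriptions and were not tested.

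Summed levels of cell-type markers are given beside these values. Microglial markers (10 of 10 tested, 1 called higher) summed to 602, 928 and 606 CPM in SCFA libraries, against 352, 473 and 374 CPM in controls. Astrocyte markers (8 of 8 tested, 0 called) summed to 1110, 1590 and 1280 CPM with SCFA, against 797, 951 and 922 CPM in controls. Endothelial markers (5 of 8 tested, 0 called) summed to 84.6, 126 and 93.9 CPM with SCFA, against 74.4, 60.6 and 75.2 CPM in controls. All 3 sums were higher in every SCFA library than in any control, as were Hdac1, Hdac8 and Hdac11. Neuronal markers overlapped between the groups, at a median log2 fold change of 0.15, and so did oligodendrocyte markers, at 148, 220 and 158 CPM with SCFA and 190, 145 and 142 CPM in controls. The part of cell makeup in the HDAC values was not tested.

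Likeness of pattern was measured to Hdac9, the member with the smallest p, as the root mean square difference of centred log2 CPM over the 6 libraries. Among the nearest genes were Esf1 (0.068), a nucleolar protein gene, and H2ac7 (0.076), a histone H2A gene. Like Hdac9, both were below every control in every SCFA library and highest in control 2, with Esf1 at 83.5, 64.9 and 74.4 CPM with SCFA and 98.2, 130 and 93.0 CPM in controls. They were picked by their likeness over these same libraries, so these shared features follow largely from the choice. Among the HDAC genes, Hdac2 was the nearest to Hdac9 (0.155, rank 63 of the genes tested), and the farthest was Hdac8 (0.794).

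The partners of the HDACs were read from 9 lists with 93 genes in all, of which 75 were tested and 0 were called. At an unadjusted p under 0.05, 1 of the 75 was higher and 0 were lower, against 2.97% and 2.79% of all genes. The groups did not overlap in 3 higher and 3 lower genes, against 6.42% and 5.74% of all genes, so neither count stood above the background. All 18 untested genes have several transcript rows, while 49 of the 75 tested have 1 row and the rest several. Whether the number of rows is why genes were left untested was not tested. Of the NuRD complex, the nucleosome remodelling deacetylase built on HDAC1 and HDAC2, 10 of 11 genes were tested, with 0 called and a median log2 fold change of 0.23. Its histone-binding subunit gene Rbbp7 had 45.0 ± 1.94 CPM with SCFA and 38.2 ± 3.74 CPM in controls (SD, n = 3 each), without overlap (log2 fold change 0.24, adjusted p 0.902), and its remodelling ATPase gene Chd4 had 250 ± 46.3 CPM with SCFA and 211 ± 14.6 CPM in controls, with overlap. For the Sin3 complex, 11 of 13 genes were tested, 0 called, with a median of 0.06, and its scaffold gene Sin3a was at 0 counts. For the CoREST complex, 5 of 7 were tested, 0 called, with a median of 0.10, and its demethylase gene Kdm1a had 37.8 ± 5.80 CPM with SCFA and 43.9 ± 4.70 CPM in controls.

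Of the NCoR/SMRT complex, which holds HDAC3, 5 of 5 genes were tested, 0 called, with a median log2 fold change of -0.25. Its subunit gene Gps2 had 7.33 ± 1.43 CPM with SCFA and 11.8 ± 4.51 CPM in controls, and Tbl1xr1 had 157 ± 9.11 CPM with SCFA and 186 ± 32.0 CPM in controls (SD, n = 3 each); both overlapped. Of the class IIa partners, which are MEF2 factors, 14-3-3 proteins and the kinases that drive nuclear export, 19 of 21 were tested, 0 called, with a median of 0.09. The kinase gene Camk4 had 446, 469 and 429 CPM in SCFA libraries, against 498, 620 and 495 CPM in controls, all SCFA libraries being lower (log2 fold change -0.26, adjusted p 0.881). Mef2d, a transcription factor that class IIa enzymes repress, had 2.30, 1.38 and 2.38 CPM in SCFA libraries, against 3.64, 7.38 and 2.70 CPM in controls (log2 fold change -1.18, adjusted p 0.888). Mef2d was likewise lower in each SCFA library, at low counts and with control 2 far above the rest.

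Around HDAC6, all 10 genes of its substrates and of tubulin acetylation were tested, 0 called, with a median log2 fold change of 0.04. Among them, Hsp90aa1, a chaperone that HDAC6 deacetylates, had 946 ± 233 CPM with SCFA and 1200 ± 81.8 CPM in controls (SD, n = 3 each). Of the sirtuins, the NAD-dependent class III deacetylases, 3 of 7 were tested, 0 called, with a median of 0.19, and Sirt5, a mitochondrial desuccinylase, had 6.56 ± 0.481 CPM with SCFA and 4.16 ± 2.33 CPM in controls. Of the histone acetyltransferases, which add the marks that HDACs remove, 8 of 10 were tested, 0 called, with a median of -0.05. Of the bromodomain readers of acetylated lysine, 4 of 9 were tested, 0 called, with a median of 0.24. None of the 9 lists held a gene that passed the test, and each list's median is to be read beside 0.01 over all genes.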

How the data were processed

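Raw read counts per RefSeq transcript were deposited in 1 table of 34755 rows and 6 library columns; the submitters' processing notes name CASAVA 1.8.2, featureCounts and the build mm10, while aligner, strand setting and handling of shared reads are not given in the sources used. RefSeq symbols were found for 34424 rows (99.05%) in the GRCm38.p6 annotation, and rows of a symbol were summed. An unmatched row held 35.0% to 55.3% of each library and stayed in the library sizes. Genes passing filterByExpr (minimum count 10, minimum total 15) were tested with edgeR 4.0.16 (R 4.3.3): TMM scaling, quasi-likelihood F test, no covariate, two-sided, Benjamini-Hochberg adjustment over 11969 genes, threshold 0.05. DESeq2 1.42.0 and limma-voom (limma 3.58.1) were alternatives, with other scalings, filters, left-out libraries, a replicate block and unsummed rows. Bases held by 1 row and shared windows of 50 bases were computed from GENCODE M21 transcripts, the source of the sequences. Intervals on ratios are exact 95% binomial intervals and cover counting error only. Named partner genes are the 2 of each list with the smallest p; a few genes are not reported here. The members and lists were chosen with earlier results of these data known.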

Additional observations from a re-analysis of the deposited data

How the results depend on the processing

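No HDAC gene was called under any of 16 alternatives, and Hdac1, Hdac2, Hdac3, Hdac8, Hdac9 and Hdac11 kept their direction in all 16. Hdac9 ranged from -0.76 to -0.41 on the log2 scale (adjusted p 0.488 to 1), Hdac2 from -0.51 to -0.21, Hdac11 from 0.25 to 0.46 and Hdac8 from 0.41 to 1.09. Hdac4 turned to 0.13 with total counts and to 0.03 without control 2 and SCFA 2 together, and ranged from -0.15 to 0.03 with 1 library left out. Hdac5 ranged from -0.57 to 0.04 with 1 library left out. Hdac1, Hdac8 and Hdac11 were above every control under all scalings and left-out libraries tried, and of the 2 members below every control, 1 (Hdac9) was left with total counts (under which the median log2 fold change over all genes was 0.18). That count was 2 to 3 with 1 library left out (Hdac3 joined without SCFA 2, Hdac5 without SCFA 3) and 3 without both control 2 and SCFA 2. Counts over all genes (1 higher and 9 lower) moved more: 30 and 25 with no filter, 16 and 21 with DESeq2, 10 and 12 with the replicate block, 14 and 11 without control 2 and SCFA 2 together, 0 to 8 and 0 to 13 with 1 library left out, and 0 and 0 with limma-voom, where 421 and 384 had an unadjusted p under 0.05. Correlations of deviations between libraries of the same number were -0.00206, 0.0101 and -0.00525. They gave no sign of pairing by number but, with deviations taken within groups of 3, could not exclude it. The replicate block called no HDAC gene. The cause of these shifts was not tested. Level order, Hdac9 shares and the Hdac1 to Hdac2 ratio were examined after seeing the data. Low counts limit Hdac1, Hdac5 and Hdac8. Hdac5, Hdac6 and Hdac7 had few counts on several rows with few bases of their own, and whether reads shared by rows or low expression lie behind this was not tested.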
